A study of Mus musculus with 31 samples.

Results

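The genes described here are the enzymes of new fatty acid synthesis together with genes that white adipocytes express, measured in lymphoid organs of mice lacking GIT2. They are 10 genes (Acaca, Fasn, Scd1, Me1, Thrsp, Agpat2, Lpl, Plin1, Adipoq and Fabp4), taken as every probe whose array annotation carries one of these symbols, which gave 11 of the 25697 probes on the array. Of these, 10 probes of 9 genes were detected widely enough to be tested. The genes were chosen by a measured value: they stood higher in the GIT2KO than in the WT thymus, so the thymus values, and those of PTL against the thymus, are given as a description and carry no test.

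The study profiled total RNA of whole organs on Illumina expression bead arrays, with 27 samples in 9 groups of 3. The GIT2KO groups were the extra cervical lymph-node-like organs found in GIT2KO mice (parathymic lobes, PTL), the thymus, the inguinal lymph node (ILN), the mesenteric lymph node (MLN) and the spleen of GIT2-/- homozygotes, and the WT groups were the thymus, ILN, MLN and spleen of C57BL/6 mice. All animals were males of 12 months on a C57BL/6 background, fed a regular diet and fasted for 12 h before sampling. The samples came from 7 animals: 3 WT mice and 3 GIT2KO mice gave all 4 organs, and the PTL came from GIT2KO mice 1 and 2 and from a further GIT2KO mouse. PTL were described only in GIT2KO mice, so they have no WT group, and the deletion was carried in all tissues.

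Fatty acids are built from acetyl-CoA in the cytosol: acetyl-CoA carboxylase makes malonyl-CoA, fatty acid synthase extends it into palmitate with NADPH that malic enzyme helps to supply, and stearoyl-CoA desaturase then desaturates the chain. Acyl chains are joined to glycerol, in part by acylglycerolphosphate acyltransferases, and the triglyceride is kept in droplets coated by perilipins. Adipocytes carry out these steps and surround lymph nodes and the ageing thymus in the mouse, so a whole organ taken with its capsule can hold fat. In bulk RNA of whole organs, a smaller number of cells of a type and less RNA per cell cannot be told apart.

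All values below are log2 signals after background correction and quantile normalization, so 1 unit is a doubling, and levels of different genes are not set against each other because probes differ in brightness. A probe was called detected in a sample at a detection p under 0.05. Arrays detected between 45.9% and 52.8% of their probes. The probes for Git2, the deleted gene, ran from 5.51 to 6.56 in GIT2KO samples and from 8.12 to 9.13 in WT samples for the probe that separated them best. The thymocyte marker list averaged 10.21 to 10.62 in thymus samples and 5.98 to 6.72 in all others, PTL included, and the B cell list averaged 9.6 to 10.57 outside the thymus and 6.02 to 7.46 in it.

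The promoters of 7 of the 10 genes had an entry among RefSeq sequences of GRCm38.p6. The 250 bases before the annotated start are shown for Thrsp, Fasn, Adipoq and Agpat2, each with a CCAAT box or GC box. Me1 also held such letters, over 2 entries, and is not shown. Capitals mark the letters CCAAT and, for the GC box, GGGCGG, or the reverse complement of either.
Thrsp (chr7:97417551-97417800, minus strand): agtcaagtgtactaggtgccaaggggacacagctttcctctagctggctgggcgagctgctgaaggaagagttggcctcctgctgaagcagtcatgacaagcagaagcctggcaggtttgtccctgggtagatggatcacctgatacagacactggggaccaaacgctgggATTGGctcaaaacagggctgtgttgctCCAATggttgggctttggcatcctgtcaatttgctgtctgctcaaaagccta
Fasn (chr11:120824548-120824797, minus strand): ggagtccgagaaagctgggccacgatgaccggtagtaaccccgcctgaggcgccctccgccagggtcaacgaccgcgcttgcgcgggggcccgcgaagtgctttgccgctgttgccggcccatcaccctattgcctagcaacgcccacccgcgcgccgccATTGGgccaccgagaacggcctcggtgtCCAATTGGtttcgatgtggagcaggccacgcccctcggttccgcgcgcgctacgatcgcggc
Adipoq (chr16:23146286-23146535, plus strand): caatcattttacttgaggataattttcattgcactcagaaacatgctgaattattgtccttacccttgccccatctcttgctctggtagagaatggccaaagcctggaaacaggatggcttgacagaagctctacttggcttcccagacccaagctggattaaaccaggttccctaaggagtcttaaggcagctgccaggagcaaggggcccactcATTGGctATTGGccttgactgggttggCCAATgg
Agpat2 (chr2:26604418-26604667, minus strand): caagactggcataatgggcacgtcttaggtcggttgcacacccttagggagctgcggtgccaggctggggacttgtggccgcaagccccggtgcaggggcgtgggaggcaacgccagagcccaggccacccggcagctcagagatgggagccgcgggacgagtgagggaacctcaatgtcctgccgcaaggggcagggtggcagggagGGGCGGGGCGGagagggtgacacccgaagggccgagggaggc
The letters CCAAT stood in 4 of the 7 genes (Fasn, Thrsp, Adipoq and a second entry of Me1), against 33.8% of all 32851 mouse promoter windows of this length, and GGGCGG stood in 2 (Me1 and Agpat2), against 32.7%. Also searched on both strands and not found in any of the 7 were the TATA letters TATAAA (in 12.4% of all windows), the E box CACGTG (6.02%), the sterol element letters TCACNCCAC (1.05%) and the nuclear receptor letters AGGTCA (14%). The CCAAT letters lay 79 to 48 bases before the start in Thrsp, 90 to 55 in Fasn and 34 to 3 in Adipoq, and the pair of overlapping GC boxes in Agpat2 lay 42 to 32 bases before it. These matches describe the letters only.

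In the thymus, all 9 tested genes were higher in GIT2KO than in WT, by 1.43 to 4.38 log2 units with a median of 2.03, while the median over all 15053 tested probes was -0.02. These differences are the ones that chose the genes. Thrsp, a nuclear protein that promotes lipogenic gene activity, read 9.98, 11.71 and 9.83 in GIT2KO thymus, against 6.26, 7.26 and 4.85 in WT thymus, with the lowest WT value not detected. Agpat2, which adds the second acyl chain to glycerol, read 9.79, 10.68 and 8.96 in GIT2KO thymus, against 5.98, 6.93 and 5.99 in WT thymus. The groups did not overlap for either gene, and the differences of 4.38 and 3.51 were the highest among the 9.

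Scd1, the delta-9 desaturase, read 13.35, 13.99 and 13.36 in GIT2KO thymus, against 11.37, 12.23 and 9.04 in WT thymus. Adipoq, the adipocyte hormone adiponectin, read 10.44, 11.54 and 10.09 in GIT2KO thymus, against 9.11, 9.12 and 4.88 (not detected) in WT thymus. WT thymus 3 was the lowest WT thymus for every one of the 9 genes except Agpat2, where it sat just above WT thymus 1. Without it the Scd1 difference was 1.76 in place of 2.68 and the Adipoq difference 1.57 in place of 2.98, and the WT thymus 3 sample had the lowest mean over the 9 genes of all 27 samples (6.54).

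Acaca, the acetyl-CoA carboxylase that commits carbon to fat, read 10.77, 12.17 and 10.91 in GIT2KO thymus, against 9.39, 9.67 and 8.73 in WT thymus. Fasn, fatty acid synthase, read 6.55, 7.43 and 5.71 in GIT2KO thymus and was not detected in any WT thymus, so it was at least 2.24-fold higher. Plin1, which coats the adipocyte droplet, read 6.55, 7.49 and 5.58 in GIT2KO thymus, against 4.97, 5.78 and 4.57 in WT thymus, where it was detected once. Plin1 was the 1 gene of the 9 whose thymus groups overlapped. Across all tested probes, 19.8% were higher in GIT2KO thymus without overlap, and since this contrast chose the genes nothing is read from the 8 of 9 here. Markers of fat and blood moved with them: the adipocyte identity list averaged 7.25 to 8.43 in GIT2KO thymus, against 5.68 to 6.49 in WT thymus, and the erythroid list (3 genes tested, with the alpha globin Hba-a1) averaged 8.67 to 11.06 in GIT2KO thymus, against 7.64 to 9.38 in WT thymus. Their part in the difference was not tested.

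**Figure D1:**
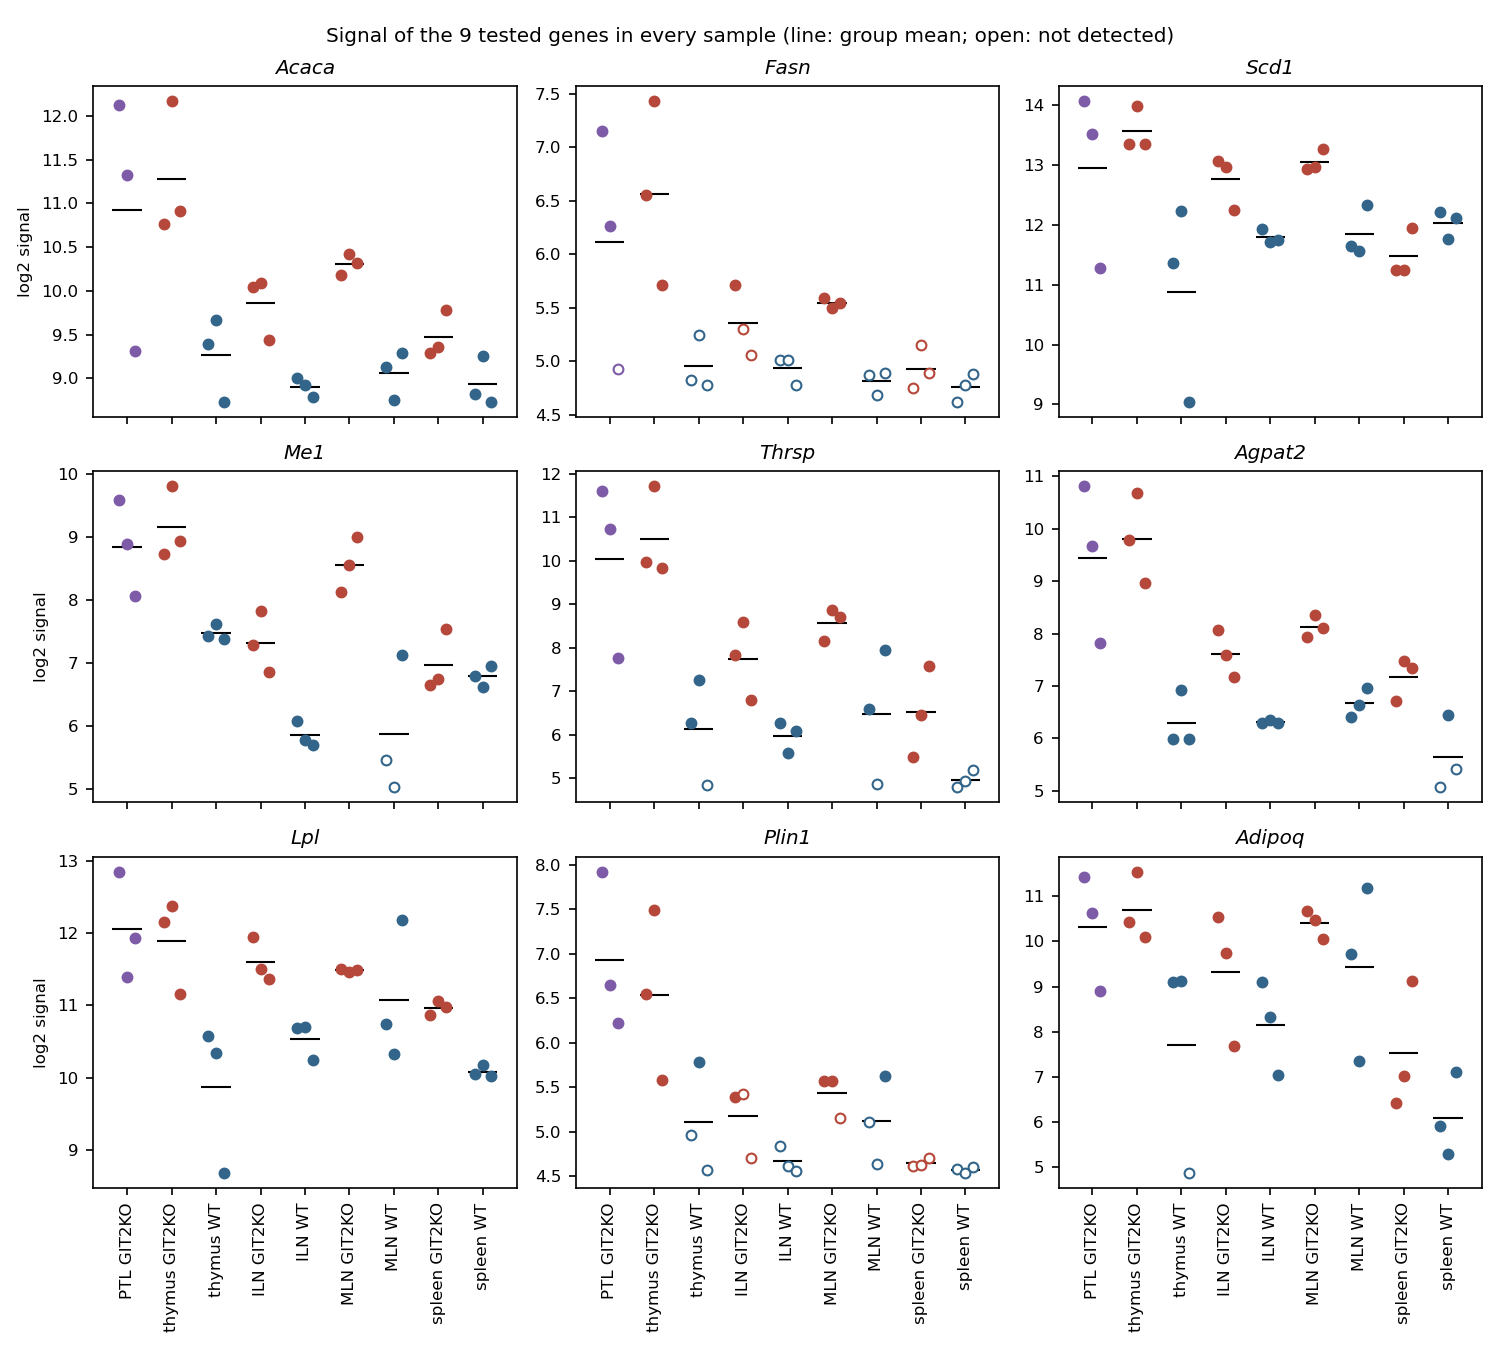
Log2 signal of the 9 tested genes in each of the 27 samples, by group, with points for samples, open points for samples where the probe was not detected, and a line at each group mean. GIT2KO thymus and PTL hold the highest group means for most genes, and the third PTL sample lies below the other PTL samples for all 9 genes except Lpl, where it is between them.

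In the ILN, all 9 genes were again higher in GIT2KO than in WT, by 0.42 to 1.77 with a median of 1.07, against a median of 0.01 over all tested probes, but none passed an adjusted p of 0.05 in the limma fit. Probes called higher made up 0.844% of those tested. At an unadjusted p under 0.05 there were 5 genes, against 13% of all probes. Of the 9 genes, 7 did not overlap between genotypes, against 15% of all probes higher without overlap. Plin1 and Adipoq were the 2 that overlapped, and the 7 included Fasn, which only 1 GIT2KO ILN sample detected.

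Me1, the NADPH-producing malic enzyme, came nearest to the threshold. It read 7.29, 7.83 and 6.87 in GIT2KO ILN, against 6.08, 5.78 and 5.71 in WT ILN, a difference of 1.47 (SE 0.42, adjusted p = 0.0598 in limma). Agpat2 read 8.07, 7.59 and 7.16 in GIT2KO ILN and 6.29, 6.35 and 6.29 in WT ILN (difference 1.30, SE 0.50, adjusted p = 0.231). The tight WT values lay below every GIT2KO value for both genes. Thrsp averaged 7.75 in GIT2KO ILN and 5.98 in WT ILN (difference 1.77, SE 0.80, adjusted p = 0.333). With only the ILN samples in the fit, where the spread of PTL and thymus does not enter, 6 of the 9 genes passed, against 4.07% of probes called higher in that fit.

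Lpl, the lipase that releases fatty acids from circulating lipoproteins, read 11.95, 11.5 and 11.37 in GIT2KO ILN, against 10.68, 10.7 and 10.24 in WT ILN (difference 1.07, SE 0.43, adjusted p = 0.249). Acaca read 10.05, 10.09 and 9.44 in GIT2KO ILN, against 9, 8.93 and 8.79 in WT ILN (difference 0.95, SE 0.44, adjusted p = 0.342). Both genes were separated without overlap. Adipoq read 10.55, 9.75 and 7.68 in GIT2KO ILN, against 9.1, 8.32 and 7.04 in WT ILN, so its spread within a genotype was wider than its difference of 1.17 (SE 1.01). Fasn was detected in 1 GIT2KO ILN at 5.71 and in no WT ILN.

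In the MLN, Me1 rose and the other 8 genes did not pass. Me1 read 8.13, 8.56 and 9.01 in GIT2KO MLN, against 5.47, 5.03 and 7.13 in WT MLN, where only the sample at 7.13 was detected. The difference was 2.68 (SE 0.42, 6.43-fold, adjusted p = 0.000301), and probes called higher made up 0.777% of those tested. The Me1 call was lost when both Me1 probes were averaged (1.64, adjusted p = 0.161) and when only the MLN samples were fitted (adjusted p = 0.0958). In that fit of the MLN alone, 3 other genes passed, and with the replicate number as a block 0 genes passed. The share of all probes called is not given for these fits.

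All 9 genes were higher in GIT2KO MLN, by a median of 1.21 against 0 over all probes, and 6 did not overlap, against 9.27% of all probes. Thrsp read 8.16, 8.88 and 8.7 in GIT2KO MLN, against 6.59, 4.87 (not detected) and 7.96 in WT MLN (difference 2.11, SE 0.80, adjusted p = 0.219). Agpat2 read 7.93, 8.35 and 8.1 in GIT2KO MLN, against 6.41, 6.63 and 6.95 in WT MLN (difference 1.46, SE 0.50, adjusted p = 0.161). Scd1 read 12.93, 12.97 and 13.27 in GIT2KO MLN, against 11.65, 11.56 and 12.33 in WT MLN (difference 1.21, adjusted p = 0.357). For Thrsp the GIT2KO MLN samples lay within 1 unit of each other, while the WT MLN samples were spread widely.

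The WT MLN spread had a sample order that several genes shared. WT MLN 3 was the highest WT MLN and WT MLN 2 the lowest for Adipoq (11.19 and 7.35), Thrsp, Lpl (12.18 and 10.32) and Plin1. For Adipoq and Lpl, WT MLN 3 was above all GIT2KO MLN samples, which read 10.67, 10.48 and 10.06 for Adipoq and 11.5, 11.46 and 11.49 for Lpl. Without WT MLN 3 the Lpl difference was 0.96 in place of 0.41 and the Adipoq difference 1.86 in place of 0.98, with adjusted p = 0.295 and 0.489. Without WT MLN 2 the Adipoq difference turned to -0.06.

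In the spleen, Agpat2 rose in GIT2KO. It read 6.71, 7.47 and 7.34 in GIT2KO spleen, against 5.06, 6.44 and 5.41 in WT spleen, with the WT samples at 5.06 and 5.41 not detected (difference 1.54, SE 0.50, 2.91-fold, adjusted p = 0.0273). Probes called higher made up 12.9% of those tested, so 1 called gene of 9 was near the background. The Agpat2 call was lost without GIT2KO spleen 2 or 3 and without WT spleen 1 or 3, and also on uncorrected signals (adjusted p = 0.103), and with the adipocyte identity list mean as a covariate the difference was 0.61 (adjusted p = 0.211).

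Thrsp was detected in every GIT2KO spleen, at 5.5, 6.46 and 7.58, and in no WT spleen, which put it at least 2.18-fold higher (adjusted p = 0.164). Lpl read 10.87, 11.06 and 10.98 in GIT2KO spleen, against 10.05, 10.17 and 10.02 in WT spleen (difference 0.89, SE 0.43, adjusted p = 0.131). Both genes were separated without overlap. Scd1 was the exception in direction: it read 11.24, 11.25 and 11.95 in GIT2KO spleen, against 12.22, 11.77 and 12.11 in WT spleen (difference -0.55, SE 0.57, adjusted p = 0.517). With the adipocyte list mean as a covariate Scd1 was lower by a larger amount that passed (-1.58, adjusted p = 0.00705), and Acaca, Fasn, Me1, Thrsp, Plin1 and Adipoq, which had been higher, stood at -0.03 to -0.66 without passing. The covariate itself did not overlap between genotypes in the spleen, at 6.34 to 7.11 in GIT2KO and 5.71 to 5.82 in WT. These adjusted values thus rest on a slope fitted over all groups, and no conclusion is drawn from them. Fasn and Plin1 were not detected in any spleen. In all, 5 of the 9 genes were higher without overlap, against 16.4% of all probes. Plin1 is counted among the 5 on undetected values alone (difference 0.08, adjusted p = 0.912 in limma), so its separation is not a reading of the gene.

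**Figure D2:**
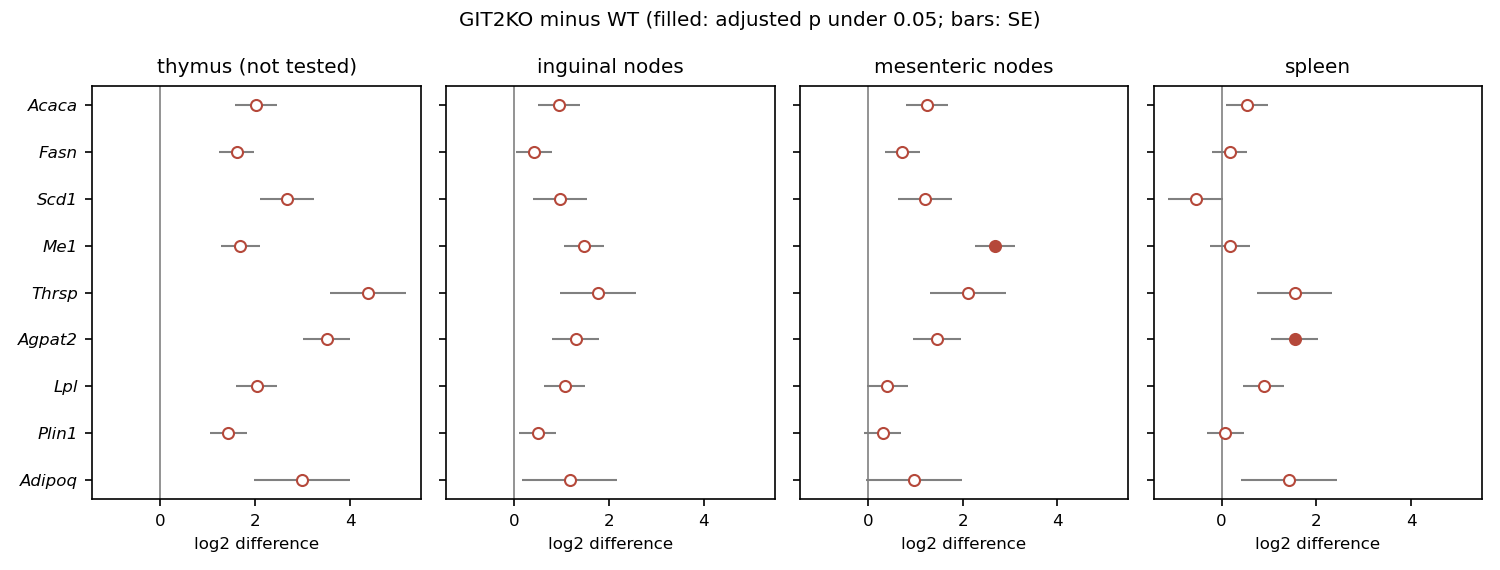
GIT2KO minus WT difference (log2) of the 9 tested genes in thymus, ILN, MLN and spleen, with bars for the SE of the fit and filled points for an adjusted p under 0.05 (the thymus was not tested). Filled points are Me1 in the MLN at 2.68 and Agpat2 in the spleen at 1.54, and Scd1 in the spleen is the only point below 0, at -0.55.

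The difference between organs in the genotype effect was tested directly. For Me1 the effect was larger in the MLN than in the spleen by 2.50 (SE 0.59, adjusted p = 0.00982), where probes called in that direction made up 5.58%. On the other Me1 probe the same difference of effects was 1.43 (adjusted p = 0.482), and with both probes averaged it was 1.97 (adjusted p = 0.118). In the spleen, Me1 read 6.65, 6.75 and 7.54 in GIT2KO, against 6.8, 6.63 and 6.96 in WT, and these values overlapped. For Scd1 the effect was larger in the MLN than in the spleen by 1.76 (adjusted p = 0.16) and larger in the ILN than in the spleen by 1.52 (adjusted p = 0.283). No member passed for the ILN against the spleen, where 4.92% of probes were called in either direction and 1 member had an unadjusted p under 0.05, or for the ILN against the MLN, where 0.0996% were called and 0 members had an unadjusted p under 0.05. For Me1 the difference of effects between ILN and spleen was 1.29 (SE 0.59, adjusted p = 0.208).

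Me1 has 2 probes on the array, and they gave different results. The values above come from the brighter probe, ILMN_2774690. On the other, ILMN_2937261, the thymus read 7.06, 8.92 and 4.62 in GIT2KO and 6.85, 6.84 and 6.64 in WT. The MLN read 6.51, 7.58 and 4.65 in GIT2KO and 5.4, 4.97 and 6.59 in WT (difference 0.59, adjusted p = 0.827). The ILN and spleen differences on this probe were 0.46 (adjusted p = 0.901) and -0.84 (adjusted p = 0.508).

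The low GIT2KO values of the second probe came from the same animal in every organ. GIT2KO mouse 3 was undetected on it in thymus, ILN, MLN and spleen, at 4.62, 4.71, 4.65 and 4.78, and lay below the mean of the other GIT2KO mice by 3.37, 1.78, 2.4 and 0.94 log2 units in these organs. On the brighter probe the same mouse differed from the others by between -0.69 and 0.84. The third PTL sample, from another mouse, was also undetected on the second probe, at 4.67, and read 8.07 on the brighter one.

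**Figure D3:**
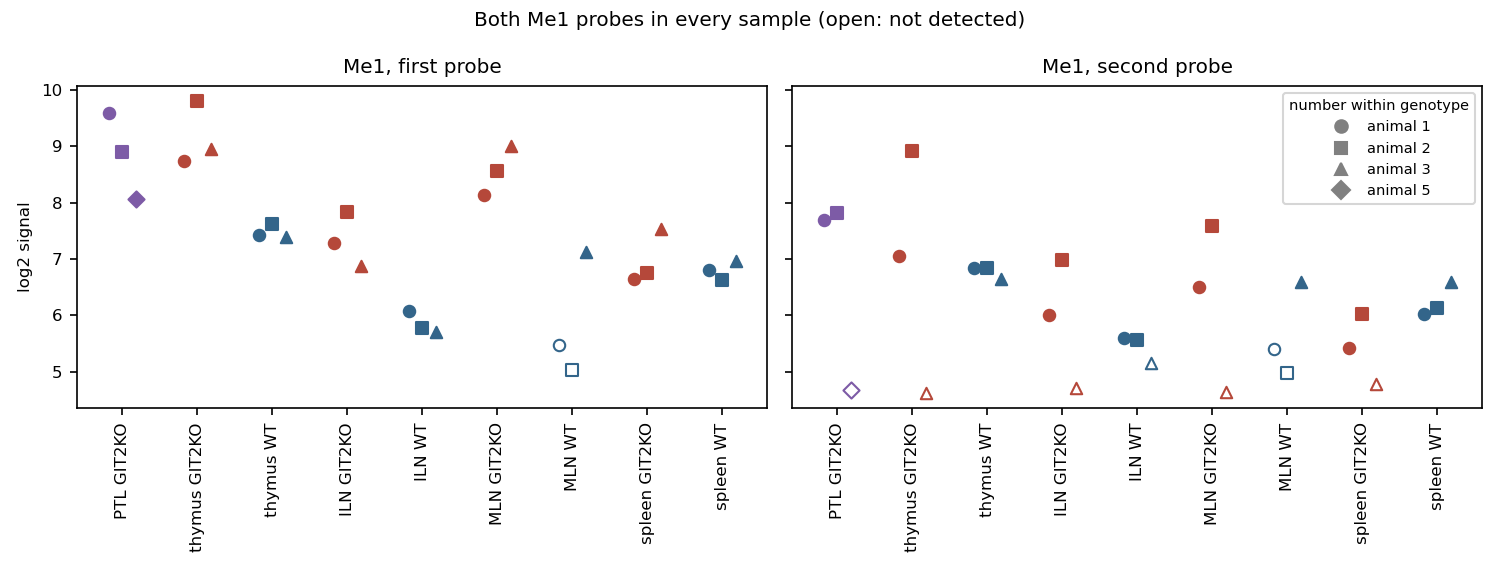
Log2 signal of the 2 Me1 probes by organ and animal, with each point a sample and open points for samples where the probe was not detected. On ILMN_2937261, GIT2KO mouse 3 is at 4.62 to 4.78 in all 4 organs, and on ILMN_2774690 it is at 6.87 to 9.01.

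PTL were compared with the lymph nodes and spleen of GIT2KO mice. Against the spleen, 6 of the 9 genes rose, against 9.2% of tested probes called higher. Of the 6, Plin1 and Fasn were undetected in every spleen, and were in part tested because groups such as PTL and GIT2KO thymus detected them. Their calls are therefore not read against this share. Thrsp read 11.6, 10.74 and 7.77 in PTL, against 5.5, 6.46 and 7.58 in GIT2KO spleen (difference 3.52, SE 0.80, 11.5-fold, adjusted p = 0.00228). Plin1 read 7.92, 6.65 and 6.22 in PTL and was undetected in GIT2KO spleen, at least 2.94-fold higher (adjusted p = 0.000127). Both genes were separated without overlap, Thrsp narrowly.

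Me1 (1.87, adjusted p = 0.00194), Agpat2 (2.26, adjusted p = 0.00196), Acaca (1.44, adjusted p = 0.0206) and Fasn, which was undetected in GIT2KO spleen (at least 1.67-fold, adjusted p = 0.0248), were the other genes that rose against the spleen. With the adipocyte list mean as a covariate the Acaca and Fasn calls were lost (0.58, adjusted p = 0.0998 and 0.49, adjusted p = 0.159), and the other 4 remained. Agpat2 read 10.81, 9.68 and 7.82 in PTL, against 6.71, 7.47 and 7.34 in GIT2KO spleen. Adipoq read 11.42, 10.62 and 8.9 in PTL, against 6.42, 7.03 and 9.12 in GIT2KO spleen, so the groups overlapped (difference 2.79, SE 1.01, adjusted p = 0.0552). Scd1 (1.48, adjusted p = 0.0714) and Lpl (1.09, adjusted p = 0.0781) did not pass.

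Against the GIT2KO ILN, 3 genes rose, against 2.4% of tested probes called higher: Plin1 (1.75, adjusted p = 0.0102), Me1 (1.52, adjusted p = 0.037) and Agpat2 (1.83, adjusted p = 0.0381). Against the GIT2KO MLN, 1 gene rose, Plin1 (1.5, adjusted p = 0.0241), with 3.09% of probes called higher. Plin1 was detected in 1 GIT2KO ILN sample and 2 GIT2KO MLN samples, and was in part tested because PTL and GIT2KO thymus detected it. Thrsp differed by 2.29 from the ILN (adjusted p = 0.113) and by 1.46 from the MLN (adjusted p = 0.3). Scd1 and Adipoq differed little from the MLN, at -0.10 and -0.09.

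The PTL samples varied more than those of any other GIT2KO group for several genes. Acaca read 12.13, 11.32 and 9.31 and Scd1 read 14.07, 13.52 and 11.28 in PTL, and the low value belonged to PTL 3 in both. PTL 3 was the sample from the mouse that gave no other organ. Since PTL 1 and 2 share animals with the other organs, the animal was also entered as a fixed block, which leaves these contrasts to the 2 shared mice. With it, 8 of 9 genes rose against the ILN, against 3.58% of probes, with Thrsp at 2.95 (adjusted p = 0.0154), Agpat2 at 2.42 (adjusted p = 0.00781) and Acaca at 1.65 (adjusted p = 0.0161), and Lpl as the gene that did not pass (0.39, adjusted p = 0.325). Against the MLN, 7 rose with the block, against 5.33% of probes, with Thrsp at 2.65 (adjusted p = 5.23e-07) and Scd1 at 0.85 (adjusted p = 0.000924). Against the spleen all 9 rose with it, against 10.3% of probes. Each of these block fits rests on 2 pairs of samples. Their p-values therefore draw mostly on the spread that limma borrows across probes, and not on agreement between many mice.

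Without PTL 3, 6 genes rose against the ILN, where 2.59% of probes were called higher in that fit, and 4 against the MLN, where 2.23% were. Without PTL 1, none rose against either node, and with only the 2 groups compared in the fit none rose against either node. Counts against the ILN also fell to 1 without PTL 2 and 1 without GIT2KO ILN 1, and to 0 without GIT2KO ILN 3, and those against the MLN fell to 0 without any of the MLN samples. For the spleen, leaving out a sample gave 4 to 8 genes.

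**Figure D4:**
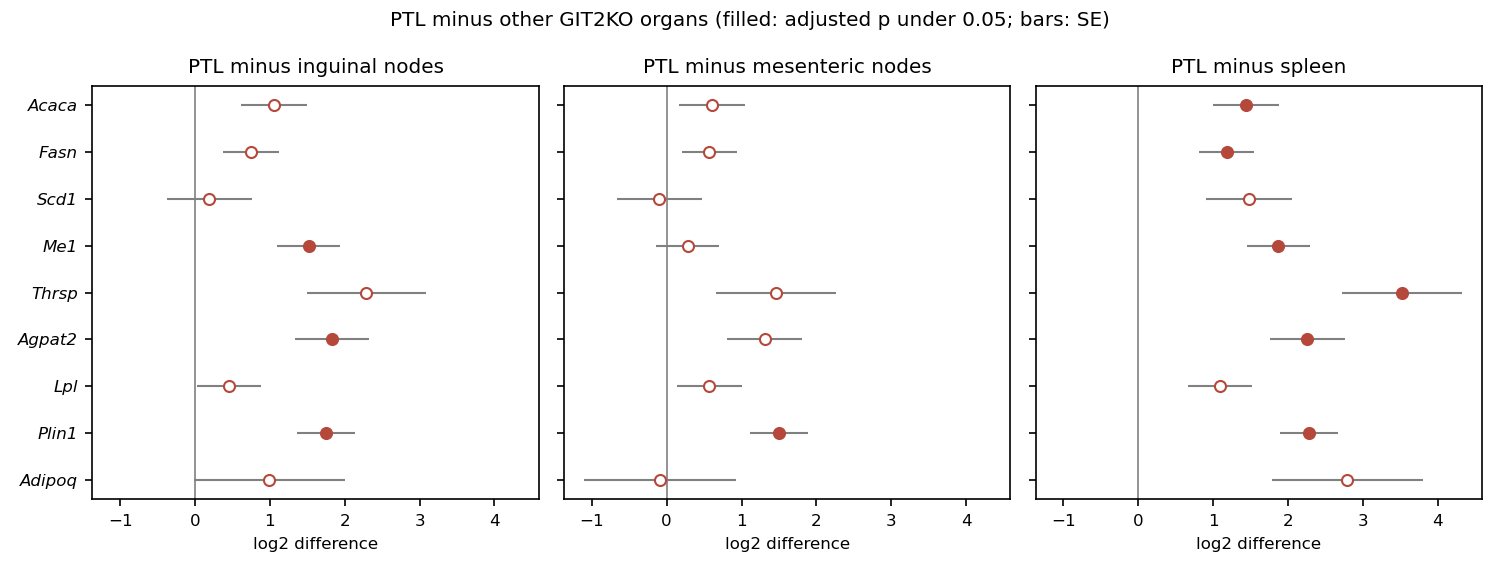
PTL minus GIT2KO ILN, MLN and spleen difference (log2) of the 9 tested genes, with bars for the SE of the fit and filled points for an adjusted p under 0.05. Plin1 is filled in all 3 comparisons, at 1.75, 1.5 and 2.28 (the last against undetected spleen values), and the Thrsp difference of 3.52 against the spleen is the highest point. Plin1 was in part tested because groups where it was high, PTL among them, detected it.

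Set beside the thymus, PTL values lay near those of the GIT2KO thymus. PTL minus GIT2KO thymus had a median of -0.37 over the 9 genes and ran from -0.61 to 0.39, with 2 genes higher (Plin1 and Lpl) and 7 lower. This tally rested on PTL 3: without it all 9 genes were higher in PTL, by 0.07 to 0.74. PTL minus WT thymus had a median of 2.08, with all 9 higher. These values were not tested, as the thymus samples chose the genes.

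The order of group means differed between genes, with WT thymus at rank 4 of 9 for Me1 and at rank 9 for Scd1 and Lpl. For Agpat2 the order was GIT2KO thymus (9.81), PTL (9.44), GIT2KO MLN (8.13), GIT2KO ILN (7.61), GIT2KO spleen (7.18), WT MLN (6.67), WT ILN (6.31), WT thymus (6.3) and WT spleen (5.63), so every GIT2KO group mean stood above every WT group mean. The 1 step between neighbours free of overlap was WT MLN above WT ILN. For Thrsp every GIT2KO group mean also stood above every WT group mean, with GIT2KO spleen (6.51) just above WT MLN (6.47). For Adipoq the GIT2KO mean was the higher within each organ, but the genotypes were mixed in the order. WT MLN (9.42) stood above GIT2KO ILN (9.33), and GIT2KO spleen (7.53) stood below WT thymus (7.7).

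Among WT organs, Adipoq differed most. It read 9.73, 7.35 and 11.19 in WT MLN, against 5.91, 5.29 and 7.11 in WT spleen (difference 3.32, SE 1.01, 10-fold, adjusted p = 0.0174), where 14.2% of probes were called higher. The call was lost without WT MLN 3 (2.44, adjusted p = 0.1), and also without WT MLN 1 or WT spleen 2, and with the adipocyte list mean as a covariate (0.95, adjusted p = 0.419). No gene passed between WT ILN and WT spleen, where 25.5% of probes were called in either direction and 1 member had an unadjusted p under 0.05. With the animal as a block 3 passed there: Adipoq (2.05, adjusted p = 0.0396) and Thrsp (1.01, adjusted p = 0.0219), higher in ILN and with 9.59% of probes called higher, and Me1 (-0.94, adjusted p = 0.0362), lower in ILN and with 6.99% of probes called lower. No gene passed between WT ILN and WT MLN, where 7.18% of probes were called in either direction and 0 members had an unadjusted p under 0.05.

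Fabp4, the adipocyte fatty acid binding protein, was undetected in all 27 samples, at 4.48 to 4.66, and was not tested. Its probe therefore gave no reading of the gene, in fat-rich samples or others. Fasn was detected in 9 of 27 samples and Plin1 in 11, and both passed the detection filter through the groups where they were high.

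The 9 genes moved together from sample to sample. Over the 36 gene pairs, Pearson's r across the 27 samples had a median of 0.80 (0.60 to 0.95), and after group means were removed, a median of 0.69 (0.46 to 0.9). These are descriptions over samples that share animals and organs. The samples include the thymus groups whose difference chose the genes, which can raise r across all samples. The same limit holds for every r over all samples given below. The mean over the 9 genes was 9.81, 10.8 and 9.39 in GIT2KO thymus, against 7.77, 8.25 and 6.54 in WT thymus, and 10.84, 9.9 and 8.47 in PTL.

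Outside the 10 genes, those whose pattern was most like their mean were Chpt1 (r 0.97 over 27 samples), Dbi (0.96), Tmem45b (0.96), Dgat2 (0.93), Ghr (0.91), Myl1 (0.91), Cav2 (0.91), Gpd2 (0.9), Pcx (0.9) and Pnpla2 (0.89). Chpt1, a choline phosphotransferase of phospholipid synthesis, averaged 9.57 in GIT2KO thymus and 6.76 in WT thymus. Dbi, the acyl-CoA binding protein, averaged 13.17 in GIT2KO thymus and 11.76 in WT thymus. Within groups, r was 0.94 for Chpt1 and 0.96 for Myl1, a myosin light chain of skeletal muscle.

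The wider adipocyte genes gave the following. Of the adipocyte identity list, 7 of 10 genes were tested, and all 7 were higher in GIT2KO thymus, with a median difference of 1.5. In ILN it averaged 6.54 to 7.58 in GIT2KO, against 6.24 to 6.72 in WT. In MLN it averaged 7.21 to 7.55 in GIT2KO, against 6.48 to 7.56 in WT, and in spleen 6.34 to 7.11 in GIT2KO, against 5.71 to 5.82 in WT. None of the 7 passed in the ILN, MLN or spleen between genotypes. Across all 27 samples the list mean followed the mean of the 9 genes with r 0.93, and with r 0.94 within groups. With the list mean as a covariate, the median thymus difference of the 9 genes was 0.47 in place of 2.03. The list mean did not overlap between thymus genotypes, at 7.25 to 8.43 in GIT2KO and 5.68 to 6.49 in WT. The value of 0.47 thus rests on a slope fitted over all groups, and no conclusion is drawn from it. The part of adipocyte content in the gene differences was not tested. The lipid droplet list followed the mean of the 9 genes about as closely, with r 0.94 over all samples and 0.92 within groups. Within groups, r was 0.81 for triglyceride assembly, 0.71 for brown adipocytes, 0.66 for regulators, 0.65 for fatty acid synthesis and 0.58 for uptake. The erythroid list had r 0.74 within groups but -0.11 over all samples. Other cell type lists followed less closely within groups: r was 0.26 for skeletal muscle, 0.16 for thymocytes, 0.05 for macrophages, 0.02 for endothelium, -0.27 for high endothelial venules and -0.43 for B cells.

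Defining adipocyte markers differed in how far they followed. Lep, the satiety hormone leptin, read 8.47, 8.96 and 8.37 in GIT2KO thymus, against 6.57, 6.36 and 5.94 in WT thymus. In MLN it averaged 8.62 in GIT2KO and 6.96 in WT (difference 1.66, adjusted p = 0.248), and in ILN 7.99 in GIT2KO and 6.55 in WT (difference 1.43, adjusted p = 0.344). Cidec, a droplet fusion protein, shared the WT MLN spread of Adipoq, at 8.81, 8.27 and 7.95 in GIT2KO MLN, against 8.63, 6.1 and 10.06 in WT MLN. Pparg, the master regulator of fat cell differentiation, differed by -0.03 in ILN (adjusted p = 0.989) and -0.25 in MLN (adjusted p = 0.864), where WT MLN 3 was again the highest sample, at 8.17. Lipe, hormone-sensitive lipase, was higher in PTL than in GIT2KO spleen by 1.68 (adjusted p = 0.00559), and Cidec by 3.31 (adjusted p = 0.0124). No probe carried the symbol of Cfd, and the Cd36 probe was not detected widely enough to be tested.

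Of the brown adipocyte list, 8 of 9 genes were tested, and all 8 passed as higher in PTL against ILN, MLN and spleen of GIT2KO mice, where 2.4%, 3.09% and 9.2% of probes were called higher. No sample of the GIT2KO ILN detected 3 of the 8, none of the MLN 4 and none of the spleen 5, so the list was in part tested because PTL and thymus detected it. Ucp1, the uncoupling protein that defines brown fat, read 11.89, 10.1 and 10.63 in PTL, and was undetected in every lymph node and spleen, which put it at least 45.1-fold higher than in ILN, 45.6-fold than in MLN and 45.2-fold than in spleen. In the thymus, where it was not tested, Ucp1 read 10.64, 11.27 and 9.27 in GIT2KO, against 6.38, 8.66 and 4.58 (not detected) in WT. The list averaged 8.94 to 10.58 in PTL, 8.4 to 9.94 in GIT2KO thymus and 5.56 to 8.14 in WT thymus, and 4.93 to 6.09 in lymph nodes and spleens. Lipogenic enzymes, Plin1, Lpl and Adipoq are expressed by brown as well as white adipocytes, so the name white adipocyte does not separate them in PTL and thymus. Between genotypes the list gave no call in ILN or MLN, and 1 lower call in the spleen (Cpt1b, the muscle-type carnitine palmitoyltransferase, -1.12).

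**Figure D5:**
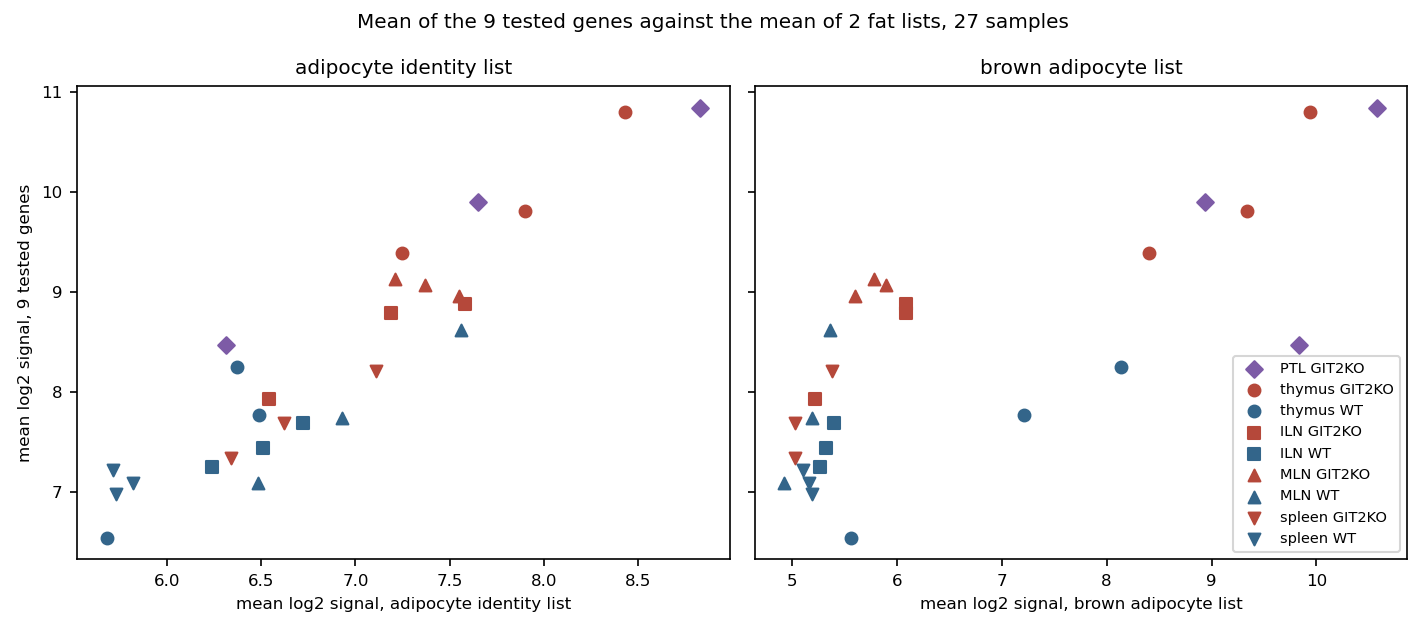
Mean log2 signal of the 9 tested genes (vertical axis) against the mean of the adipocyte identity list and of the brown adipocyte list (horizontal axes) in 27 samples, coloured by group. The identity list tracks the 9 genes with r 0.93 over all groups, and the brown list with r 0.77, with the lymph node and spleen samples at 4.93 to 6.09 on it.

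Other genes of the pathway came from fixed lists. Of fatty acid synthesis, desaturation and NADPH genes outside the 10, 11 of 15 were tested, and 0 passed between genotypes in ILN (median 0.21) and 0 in MLN (median 0.33). In the spleen, where 12.9% of all probes were called higher and 12.2% lower, 3 rose and 1 fell: Idh1, a cytosolic source of NADPH (0.75, adjusted p = 0.0164), Scd2, a second desaturase (0.71, adjusted p = 0.0337), Mid1ip1, which activates acetyl-CoA carboxylase (0.69, adjusted p = 0.00448), and Elovl5, an elongase of polyunsaturated chains, at -0.42 (adjusted p = 0.0323). In the thymus all 11 were higher in GIT2KO, with a median of 0.85. Acly, which makes cytosolic acetyl-CoA, read 12.33, 13.15 and 12.15 in GIT2KO thymus, against 11.78, 11.39 and 11.56 in WT thymus, and differed by 0.07 in ILN (adjusted p = 0.961), 0.33 in MLN (adjusted p = 0.609) and -0.28 in spleen (adjusted p = 0.442). Elovl6, which lengthens palmitate, was higher in PTL than in GIT2KO ILN by 1.61 (adjusted p = 0.00428).

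Of the regulators of lipogenic transcription, 13 of 15 were tested, and 1 rose in ILN (0.844% of all probes called higher), 1 in MLN (0.777%) and 1 in spleen (12.9%), with 1 lower in spleen (12.2%). Srebf1, the SREBP that drives lipogenic genes, read 6.9, 6.84 and 6.49 in GIT2KO thymus, against 6.07, 5.9 and 6.1 in WT thymus, and differed by -0.10 in ILN (adjusted p = 0.944), 0.57 in MLN (adjusted p = 0.372) and 0.08 in spleen (adjusted p = 0.87). Insig1, the sterol-sensing retention protein of SREBP and itself an SREBP target, rose in GIT2KO ILN (0.94, adjusted p = 0.0498) and MLN (1.08, adjusted p = 0.0208). In the spleen Usf2 rose (1.17, adjusted p = 0.0093) and Usf1 fell (-0.98, adjusted p = 0.00856), both basic helix-loop-helix factors. Mlxipl, the carbohydrate-responsive factor ChREBP, was higher in PTL than in GIT2KO ILN (2.03, adjusted p = 0.0116) and MLN (1.72, adjusted p = 0.0273).

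Among triglyceride assembly genes, 8 of 11 tested, Dgat2, which makes the last step to triglyceride, rose in GIT2KO MLN, at 9.74 ± 0.11 against 7.12 ± 1.21 in WT MLN (SD, n = 3 each, difference 2.61, SE 0.67, adjusted p = 0.0372). It was the only one of the 8 called there, where 0.777% of all probes were called higher. Among lipid droplet genes, all 10 tested, 2 were called higher in GIT2KO spleen, where 12.9% of all probes were. They were Abhd5, the activator of adipose triglyceride lipase (0.74, adjusted p = 0.0106), and Plin2, a droplet coat of many cells (0.72, adjusted p = 0.0449). PTL were higher than GIT2KO ILN for 4 of the 10, against 2.4% of all probes, led by Plin5 (2.6) and Aqp7, the glycerol channel (1.63). Among uptake genes, 8 of 10 tested, Angptl4, a secreted inhibitor of lipoprotein lipase, fell in GIT2KO ILN, at 9.97 ± 0.38 against 11.29 ± 0.15 in WT ILN (SD, n = 3 each, difference -1.32, adjusted p = 0.0331). It was the only one of the 8 called there. The share of all probes called lower in the ILN is not given, so this call is not read against a background.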

How the data were processed

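Total RNA of 27 organ samples was hybridised by the authors to Illumina MouseRef-8 arrays and read in GenomeStudio 2011.1. They deposited non-normalized signal intensity and a detection p-value for each probe. Their deposited score is the z of log10 signal within each array (largest gap 5e-10) and served as an alternative. Of the 31 arrays, 4 were repeats and were averaged with their first array. Intensities were corrected and quantile normalized with limma 3.58.1 (neqc, offset 16) in R 4.3.3. Probes detected (p under 0.05) in at least 3 samples were kept, 15053 of 25697, which represent 10341 genes. Symbols came from the array annotation: 23978 probes had 1 symbol, 0 had several and 1719 had none. For list genes with several probes the brightest tested probe was used, and the number of arrays limits the precision.

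One linear model over the 9 groups was fitted (lmFit, eBayes with trend, 18 residual df), with Benjamini-Hochberg adjustment over all tested probes and a threshold of 0.05. With 3 samples against 3, an exact permutation test of a single value cannot go below 0.1 (two-sided). The model fit was tested on simulated data. Samples of an animal are paired across organs: same-animal deviations correlated at -0.23 to 0.41 (median 0.13), and the animal was entered as a block in an alternative fit. Other alternatives were the background correction, the scale, the filter, the probes of a gene, repeat arrays, the adipocyte list as covariate, the groups fitted and leaving out each sample. Genes and lists were chosen with earlier results of these data known. The text names all 10 genes, fixed marker genes, up to 3 passing genes per list and direction, and the 10 genes most correlated with the mean.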

Additional observations from a re-analysis of the deposited data

Results flagged for a closer look

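In 4 genes the effect of GIT2KO differed between MLN and spleen by the limma test of the difference itself. They were found among the 9 tested genes and the 11, 13, 8, 10 and 8 tested genes of the pathway lists. The GIT2KO minus WT difference of Me1 was larger in the MLN by 2.5 (SE 0.59, adjusted p = 0.00982), with 2.68 in the MLN and 0.18 in the spleen, while on the other Me1 probe it was 1.43 (adjusted p = 0.482) and with both probes averaged 1.97 (adjusted p = 0.118). That of Insig1 was larger in the MLN by 1.28 (SE 0.36, adjusted p = 0.0258), and that of Elovl5 by 0.65 (SE 0.2, adjusted p = 0.0386). That of Mid1ip1 was lower in the MLN, by -0.77 (SE 0.24, adjusted p = 0.0386). Probes called larger in the MLN made up 5.58% of those tested, so the share called larger among the genes searched was near the background. No share is given for the lower direction. Groups of 3 samples are too small for a search for single outlying samples.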

How the results depend on the processing

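Counts of the 9 genes that passed changed in many alternatives, and counts not listed here stayed within 1.5 times, although the genes counted could differ. The share of all probes called higher also changed with the fit, from 0.844% to 4.07% in ILN when only its groups were fitted. This share is not given for most alternatives, so their counts are not read against a background. With the adipocyte identity mean as a covariate, in spleen Scd1 passed as lower (-1.58) in place of Agpat2, PTL against spleen kept 4 of its 6, 2 passed for GIT2KO against WT in MLN, 2 for PTL against MLN, 2 for WT ILN against spleen, both lower, 4 for WT MLN against spleen, all lower and without Adipoq, 2 for the effect in ILN minus spleen and 4 for MLN minus spleen, and the thymus medians were 0.47 for GIT2KO minus WT and 0.52 for PTL minus WT. The covariate values rest on a slope fitted over all groups, and no conclusion is drawn from them. With the animal as a block, which leaves the PTL contrasts to 2 shared mice, 8 passed for PTL against ILN, 7 for PTL against MLN and 3 for WT ILN against spleen. Genotype groups share only a number; with the replicate block, 7 passed in ILN, 0 in MLN, 4 in spleen, 1 for PTL against ILN, 0 against MLN, 2 against spleen, 3 for WT ILN against spleen, and 1 and 2 for the effects in ILN and MLN minus spleen (same-number deviations of the genotypes correlated at -0.13 to 0.26). With only the groups compared, 6 passed in ILN, 3 in MLN, 2 in spleen, 0 for PTL against either node, 3 for WT ILN against spleen, 0 for WT MLN against spleen and 1 for the effect in ILN minus spleen. Spleen had 0 on deposited z scores, on log2 of signal plus 16 and without background correction. PTL against MLN had 0 on z scores, PTL against ILN had 1 without the filter, and with probes of a gene averaged MLN had 0 and the effect in MLN minus spleen 0.

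Leaving out each sample gave 0 to 1 in spleen, 0 to 6 for PTL against ILN, 0 to 4 against MLN, 4 to 8 against spleen and 0 to 3 for WT MLN against spleen (3 without WT MLN 2). ILN stayed at 0 and MLN at 1. The thymus median ran from 1.64 to 2.4 and PTL minus WT thymus from 1.39 to 2.46, while PTL minus GIT2KO thymus ran from -0.97 to 0.33.

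Directions of reported values turned only where they had not passed in the fit described above. With the covariate, Adipoq was -0.01 and Fasn -0.04 in ILN, in spleen Acaca was -0.34, Fasn -0.54, Me1 -0.5, Thrsp -0.03, Plin1 -0.66 and Adipoq -0.37, Scd1 -0.35 for PTL against ILN, Thrsp -0.23 for WT ILN against spleen, and Acaca -1.05, Fasn -0.88 and Thrsp -0.57 for WT MLN against spleen. Scd1 for PTL against MLN was 0.25 on z scores and 0.85 with the animal block, where Adipoq was 0.45. In spleen Me1 was -0.33 with its probes averaged and Plin1 -0.02 on z scores. Acaca for WT ILN against spleen was 0.11 on z scores, and Fasn for WT MLN against spleen was -0.01 on z scores and -0.05 with repeat arrays. Leaving out a sample, Adipoq ran from -0.06 to 1.86 in MLN and from -0.64 to 0.62 for PTL against MLN, Me1 from -0.1 to 0.35 in spleen, Scd1 ran from -0.36 to 1.03 for PTL against ILN and from -0.65 to 0.74 against MLN, Me1 from -0.09 to 0.68 for PTL against MLN, Acaca from -0.13 to 0.13 for WT ILN against spleen and Fasn from -0.02 to 0.12 for WT MLN against spleen. The pathway genes named for a genotype comparison kept their direction in all 19 alternatives each and passed in 7 (Insig1 in ILN, Dgat2) to 17 (Mid1ip1) of them. The cause of these changes was not tested. Probes near background limit Fasn, Plin1 and Fabp4.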

Other observations

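Probes other than the second Me1 probe also set a GIT2KO mouse apart in all 4 organs. A search chosen after the Me1 values were seen counted probes that differed from the mean of the other 2 GIT2KO mice by over 0.9 log2 units in the same direction in thymus, ILN, MLN and spleen. Of 15053 probes, 20 were lower and 5 higher in mouse 3, against 7 lower and 10 higher for mouse 1 and 7 lower and 16 higher for mouse 2. The Emb probe, for example, was listed as lower in mouse 1 and mouse 3 and higher in mouse 2, so these counts are not separate between mice. Chromosomes 1, 9 (which includes Me1) and 14 hold 5.53%, 5.59% and 3.37% of tested probes. Of the 23 probes of mouse 3 with a known chromosome, these held 7, 7 and 4. The same chromosomes held 3, 6 and 1 of the 20 such probes of mouse 2. For mouse 1 they held 3, 1 and 1 of 15. Each mouse was set against the mean of the other 2, so a probe low in 1 mouse can be listed as high in another. The 6 chromosome 9 probes of mouse 2, all higher, were all among the 7 of mouse 3, all lower. The chromosome 9 counts of these mice are therefore not separate sightings. The second Me1 probe is among these shared probes, listed as higher in mouse 2 and lower in mouse 3.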
